A study of Mus musculus with 12 samples.

Results

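The translation factors were the protein-coding genes whose symbol begins with Eif or Eef and a digit, without the Eif2ak kinases and without pseudogenes, together with Pabpc1, Pabpc4, Paip1, Etf1 and Gspt1. This naming rule, which uses no measured value, gave 69 genes out of 55416 gene identifiers and 21928 protein-coding genes. They were followed in poly(A) RNA of E14Tg2a.4 mouse embryonic stem cells, an established line, in which Rpl31, a protein of the large subunit, was fused to FLAG, a cleavage site for TEV protease and an AviTag. All 4 groups of 3 libraries carried this tagged Rpl31 and were transfected with plasmids for the N- and C-terminal fragments of ALIBi, a split system that attaches biotin to nearby AviTags. In the ER ribosome-bound group the biotin was placed on ribosomes at the endoplasmic reticulum (ER), and in the cytosol ribosome-bound group on ribosomes in the cytosol. Ribosomes were purified from lysates that held cycloheximide, which stalls elongation, and released with TEV protease. The ER whole-cell and cytosol whole-cell groups were RNA from lysate set aside before that purification. The labels call the 3 libraries of each group biological replicates. They do not say whether the tagged line is 1 clone, whether unlabelled Rpl31 remained, or whether the replicates came from separate cultures. The p-values therefore take in only how these libraries vary, and part of that variation may be technical.

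Translation factors are proteins that join the ribosome for part of its cycle. Initiation factors bring the initiator tRNA and the small subunit to an mRNA and find the start codon, elongation factors deliver aminoacyl-tRNAs and move the ribosome along, and termination factors release the finished protein. Nearly all are soluble proteins made on free ribosomes, and their mRNAs encode no signal that directs the ribosome to the ER. Some of these mRNAs, those of the elongation factors and of several initiation factors among them, belong with the ribosomal protein mRNAs to the 5′ terminal oligopyrimidine (TOP) class, which begins with a C followed by a run of pyrimidines and is controlled as a group by the kinase mTOR and the protein LARP1. Of the 69 genes, 10 are known TOP mRNAs: Eef1a1, Eef1b2, Eef1d, Eef1g, Eef2, Eif3e, Eif3f, Eif3h, Eif4b and Pabpc1.

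The first 25 bases of the annotated transcripts are shown because the start of the mRNA is what defines the class. Shown are 4 TOP members with a pyrimidine run and 3 members outside the class without one. The latter were among the lowest between the labelled pools. Capitals mark a run that starts with C and goes on with at least 4 letters that are each C or T.
Pabpc1: CCCCTTCTCCCCggcggttagtgct
Eif3f: CTCTTTCTCggcaagatggcttctc
Eef2: gttgacgtcagcggtCTCTTCCgcc
Eif3e: gaacaagcgCTCCTTTCCCCCggca
Eif4a1: ctagattctaaggatcatgtctgcg
Eif2s2: cgcgccacgagaagcacgtaaggtt
Eif3b: gcggccgagccgggtgagaagcagc
The run stood at base 1 in Pabpc1 and Eif3f, at base 10 in Eif3e and at base 16 in Eef2, and none was found in the 25 bases of Eif4a1, Eif2s2 and Eif3b. The TOP members Eef1a1, Eef1b2, Eef1d, Eef1g and Eif3h, not shown, carried no such run. Eif3g and Eif4a3, members outside the class that were also low between the pools, carried one, at bases 12 and 10. The search covered the 16 words of 5 letters from CCCCC to CTTTT on the transcribed strand, which overlap one another in longer runs. Such a word lay within the first 25 bases in 5 of the 10 TOP members, in 20 of the 57 other members that were tested and in 28.4% of 14152 tested protein-coding genes. It stood at base 1 in 2 TOP members, in 1 other member (Eif2s1) and in 2.18% of those genes. The sequences are those of the longest-coding GENCODE M21 transcript of each gene, on chromosomes 15 (Pabpc1, Eif3e), 7 (Eif3f), 10 (Eef2), 11 (Eif4a1), 2 (Eif2s2) and 5 (Eif3b). An annotated start need not be the one used in these cells, so no match says only that the letters are not in this window.

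Reads counted in genes came to 23352021 to 26920565 per ER ribosome-bound library, 23285186 to 25149775 per cytosol ribosome-bound library, 21110420 to 26826542 per ER whole-cell library and 23357903 to 25470384 per cytosol whole-cell library. The ER label was checked on 8 mRNAs of secretory and membrane proteins, Ddost, Hspa5, Pdia3, Pdia6, Psap, Calr, Sec61a1 and Itgb1, which were all higher in ER ribosome-bound than in cytosol ribosome-bound RNA with a median log2 ratio of 2.39. All 8 stem cell markers, Pou5f1 and Nanog among them, were present in every library, and the erythroid markers reached at most 0.0983 counts-per-million (CPM). Markers of fibroblasts, the usual feeder cells, summed to 88.4 to 92.6 CPM in ER ribosome-bound RNA and 30.5 to 37.6 CPM in the other groups. In that list Thy1, a surface protein mRNA, was at 15.2 to 62.1 CPM over all libraries, and the collagen mRNA Col3a1 was at 0 to 0.263 CPM. Markers of the 2-cell-like state summed to 24.2 to 24.9 CPM in ER ribosome-bound RNA, 37.6 to 41.4 CPM in cytosol ribosome-bound RNA and 4.07 to 5.41 CPM in whole-cell RNA. Primitive endoderm, mesoderm and neural markers summed to at most 18.6 CPM in any library. The part of these markers in the results on translation factors was not tested. Transcripts of the mitochondrial genome, which are not translated by cytosolic ribosomes, made up 0.0329% to 0.0401% of counts in ER ribosome-bound, 0.0363% to 0.0447% in cytosol ribosome-bound and 1.86% to 1.94% in whole-cell RNA.

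The 69 genes took 3.87% ± 0.04 of the counts in ER ribosome-bound RNA and 4.41% ± 0.036 in cytosol ribosome-bound RNA, and 5.09% ± 0.092 in ER whole-cell RNA and 5.04% ± 0.041 in cytosol whole-cell RNA (SD, n = 3 each). Levels between genes were compared as CPM per kilobase of exon. In ER whole-cell RNA the order began with Eef1a1 at 7305, Eef2 at 2433, Eef1g at 917, Eef1b2 at 627, Pabpc1 at 593 and Eif5a at 517 CPM per kilobase, followed by Eif4a1 at 345 and Eif4b at 311. The most abundant factor mRNAs were thus those of elongation, whose proteins are needed at every codon, with poly(A)-binding protein and eIF5A next. After the filter on low counts 67 of the 69 genes were tested, with Eif4e1b and Eif4ebp3 below it. Eif4e1b, a paralog of the cap-binding protein that is known from oocytes, had 0 or 1 count in each ER ribosome-bound library and 5 to 9 counts in each cytosol ribosome-bound library. Eif4ebp3, a relative of the cap-binding inhibitors, had 3 to 9 counts in ER ribosome-bound libraries and 2 to 5 counts in cytosol ribosome-bound libraries. Eif3j1 and Eif3j2, and Eif2s3x and Eif2s3y, are near-identical pairs, and Eef1a1, Eif4a1, Eif5a, Eif1 and other abundant members have processed pseudogenes, so how reads were shared among copies could alter their counts. Multiply aligned reads were 4.92% to 5.11% in ER ribosome-bound, 5.58% to 6.17% in cytosol ribosome-bound and 7.25% to 7.58% in whole-cell libraries, and the part of this in the results was not tested.

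ER ribosome-bound against cytosol ribosome-bound RNA asked in which labelled pool each factor mRNA was at a higher relative level. The mRNAs of elongation factors eEF1A1, eEF1B2, eEF1G and eEF2, of the poly(A)-binding proteins and of Eif3a were 1.12 to 1.215 times as high on ER-labelled as on cytosol-labelled ribosomes. Those of the alpha and beta subunits of eIF2, of the helicase Eif4a1, of the cap-binding protein Eif4e and of both termination factors were 0.75 to 0.84 times as high. In edgeR's quasi-likelihood test, with p-values adjusted by Benjamini-Hochberg across 16221 genes and a threshold of 0.05, 13 of the 67 tested members were higher, against 29.1% of all tested genes. Lower were 38, against 24.6% of all tested genes. All 3 ER ribosome-bound libraries lay above the 3 cytosol ribosome-bound libraries for 14 of the 67 members, against 31% of all tested genes, and below them for 39, against 27.3%. The median log2 ratio was -0.14 over the members and 0.0013 over all tested genes. Other sets of mRNAs for cytosolic proteins went in both directions. Of 83 ribosomal protein genes 71 were higher in the ER pool and 1 lower, with a median of 0.16. Proteasome, aminoacyl-tRNA synthetase, glycolysis, and chaperonin and prefoldin genes were mostly lower. Of 49 tested proteasome genes 33 were lower and 5 higher, with a median of -0.22. Of 20 aminoacyl-tRNA synthetase genes 16 were lower and 1 higher, with a median of -0.29. Glycolysis had 12 of 17 lower and 1 higher (median -0.16), and chaperonin and prefoldin 10 of 13 lower and 0 higher (median -0.29). Among all tested genes 2940 were more than 2-fold higher in the ER pool and 19 more than 2-fold lower, and the members' counts moved with how the libraries were scaled. Scaling to 96 mRNAs of cytosolic proteins (proteasome, aminoacyl-tRNA synthetases, glycolysis, chaperonin and prefoldin) instead of trimmed mean of M values (TMM) raised the log2 ratios of this comparison, the median of all genes by 0.25, and gave 37 members higher, against 52.5% of all tested genes, and 9 lower, against 3.08%. Called in the same direction under TMM, size factors by relative log expression, cytosolic scaling and scaling without mitochondrial genes were 8 higher members, Pabpc1, Eef1b2, Eef1g, Pabpc4, Eef2k, Eif3a, Eef1a1 and Eef2, and 9 lower members, Eif4a1, Eif2s2, Eif2b4, Eif3g, Eif3b, Eif4a3, Eif2d, Eif2s1 and Eif4h. The other 5 higher calls, Eif1, Eif4ebp2, Eif3f, Eif3h and Eif3k, had log2 ratios of 0.083 to 0.14 and were lost under size factors by relative log expression. With those size factors 4387 of 16221 tested genes were higher and 4743 lower. How many of all tested genes kept their call under every scaling was not counted. The number of higher calls was 8 without ER ribosome-bound replicate 1 or 2, cytosol ribosome-bound replicate 2, ER whole-cell replicate 2 or 3, or any cytosol whole-cell replicate, and 7 without ER ribosome-bound replicate 3. In these fits the log2 ratios of all genes shifted by a median of -0.058 to -0.065. Without one of the other libraries the shift was -0.0040 to -0.00046. Size factors by relative log expression, leaving out mitochondrially encoded genes, no filter and DESeq2 shifted all genes by -0.041 to -0.066. The part of these shifts in single calls was not tested. Of the members without a call, 9 were called lower in 7 to 11 of the 12 fits that left out 1 library, with Eif6, Eif4a2, Eif4b, Eef1d, Eif2b5 and Eif5b among them. In bulk libraries, less of an mRNA per cell and fewer cells that hold it cannot be told apart. For the counts per complex below, the shares of all tested genes are again 29.1% higher and 24.6% lower. Under cytosolic scaling they are 52.5% and 3.08%. Values below are TMM-scaled CPM in replicates 1 to 3, followed by log2 ratios with their standard error (SE).

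**Figure D1:**
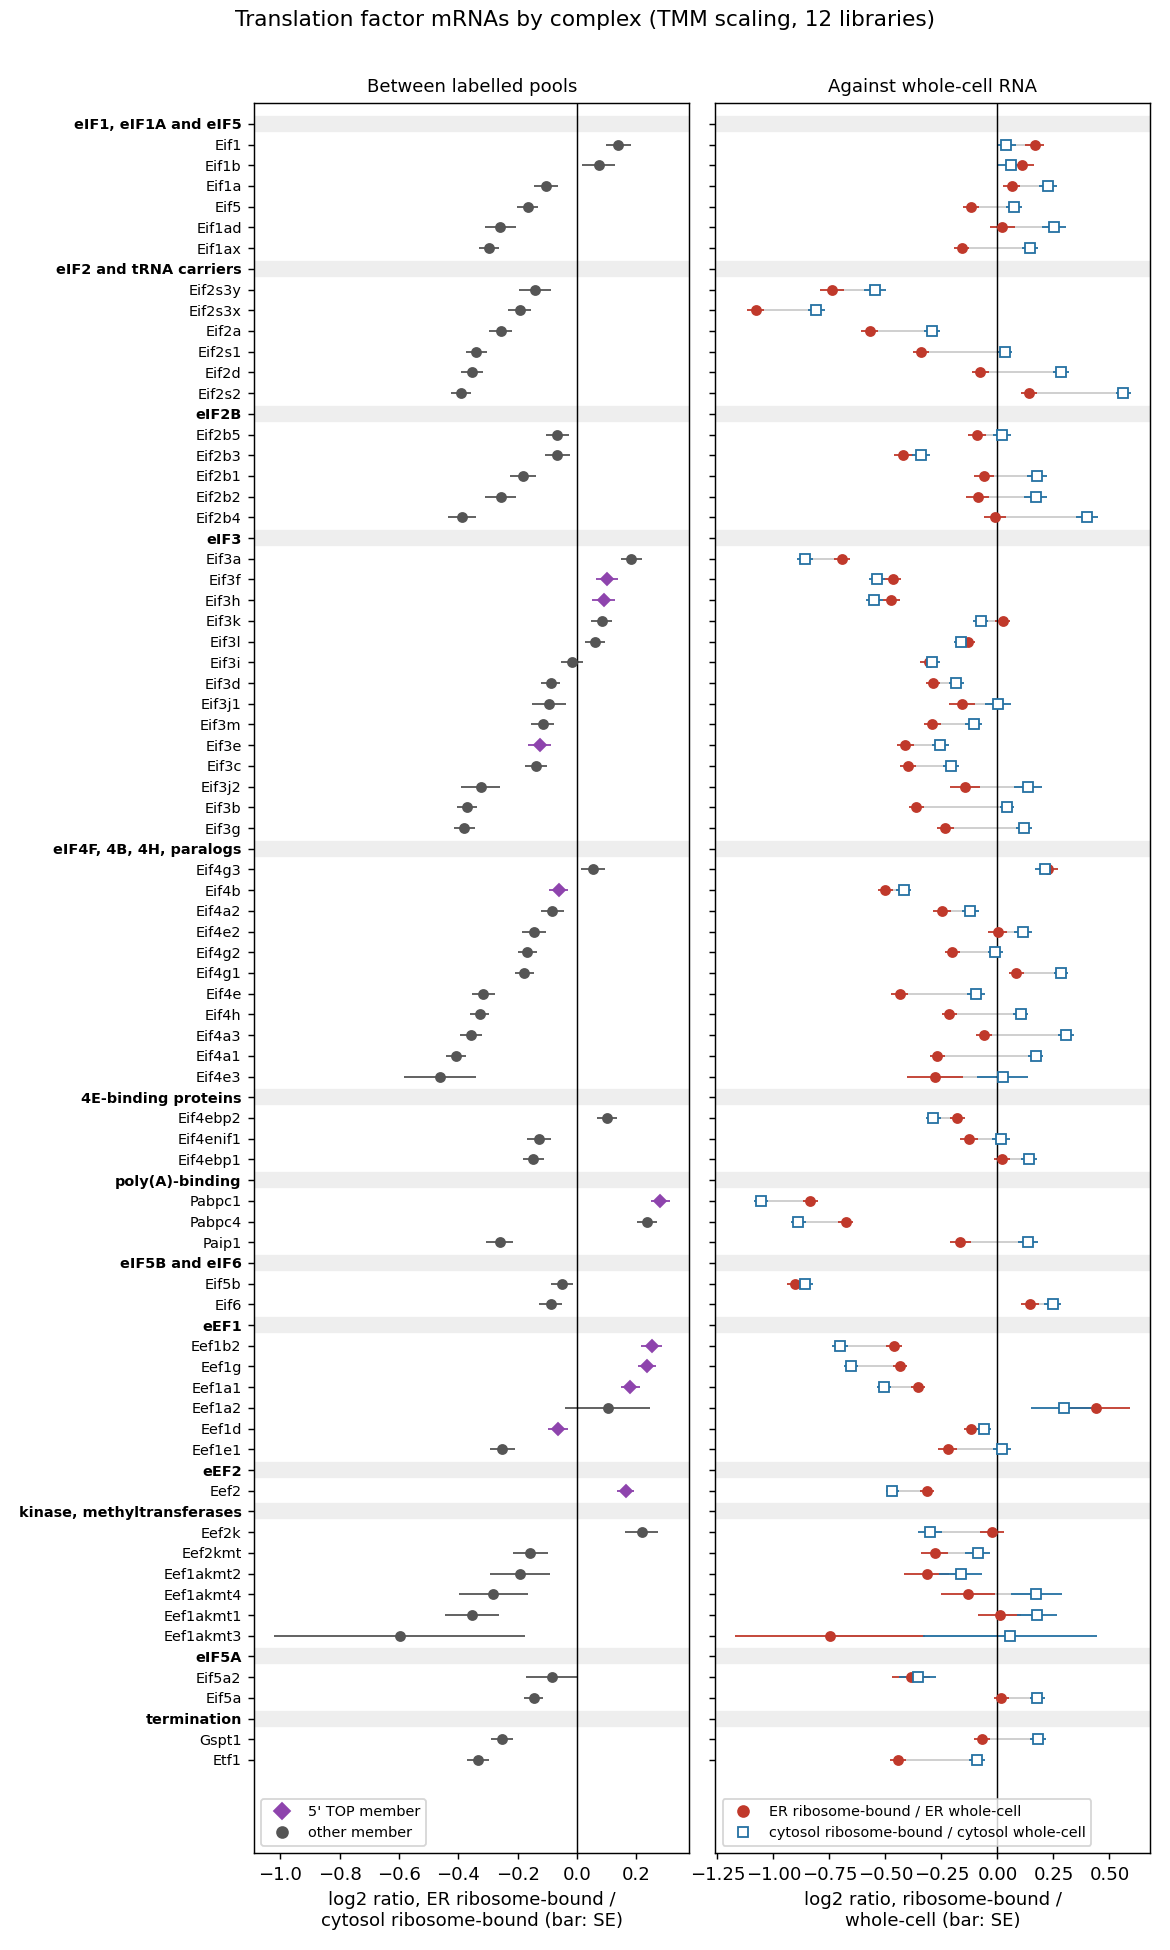
Each row is 1 of the 67 tested translation factors, grouped by complex. The left panel shows the log2 ratio of ER ribosome-bound to cytosol ribosome-bound RNA, with 5′ TOP members as diamonds, and the right panel shows ribosome-bound over whole-cell RNA for the ER pool (filled circles) and the cytosol pool (open squares). Bars are standard errors of the fit on 12 libraries. Pabpc1 lies highest in the left panel at 0.28, and Eif4e3 is the lowest called member at -0.46.

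The eEF1 group of 6 genes had 3 members higher in the ER pool and 1 lower, and 5 were higher and 0 lower under cytosolic scaling. Eef1a1 (ENSMUSG00000037742), which delivers aminoacyl-tRNAs to the ribosome, had 14349, 14527 and 13885 CPM in ER ribosome-bound RNA and 12321, 12803 and 12651 CPM in cytosol ribosome-bound RNA. The groups did not overlap, and the log2 ratio was 0.18 (SE 0.032, adjusted p = 9.2e-06). Eef1b2 (ENSMUSG00000025967), a subunit of the nucleotide exchange factor that recharges eEF1A, had 1165, 1139 and 1158 CPM in ER ribosome-bound and 966, 1001 and 942 CPM in cytosol ribosome-bound RNA. Its log2 ratio was 0.25 (SE 0.036, adjusted p = 1.8e-07). Eef1g, another subunit of that exchange factor, had 1742, 1798 and 1756 CPM in ER ribosome-bound and 1458, 1526 and 1515 CPM in cytosol ribosome-bound RNA, a log2 ratio of 0.24 (SE 0.032, adjusted p = 6.2e-08). The remaining exchange factor subunit did not follow them: Eef1d had 400.4, 404 and 404 CPM in ER ribosome-bound and 420.1, 428 and 415 CPM in cytosol ribosome-bound RNA. Its log2 ratio of -0.064 did not pass the test (adjusted p = 0.1), though it was called lower in 9 of 12 fits with 1 library left out. Eef1e1, whose protein belongs to the multi-synthetase complex, was lower at -0.25 (SE 0.041, adjusted p = 2e-06), and at 0.0027 without a call under cytosolic scaling. Eef1a2, the muscle and neuron paralog of Eef1a1, was at 5.29 to 8.05 CPM in ER ribosome-bound RNA and 5.46 to 7.46 CPM in cytosol ribosome-bound RNA, with overlapping groups.

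Eef2 (ENSMUSG00000034994), the translocase of elongation, had 6509.6, 6579 and 6431 CPM in ER ribosome-bound RNA and 5835, 5777 and 5819 CPM in cytosol ribosome-bound RNA. These groups did not overlap, and the log2 ratio was 0.16 (SE 0.030, adjusted p = 1.5e-05). Eef2k, the kinase that phosphorylates and inhibits eEF2, moved in the same direction at a much lower level. It had 30.4, 28.7 and 31.0 CPM in ER ribosome-bound and 24.99, 26.6 and 25.7 CPM in cytosol ribosome-bound RNA and a log2 ratio of 0.22 (SE 0.055, adjusted p = 0.00099). Among the 5 methyltransferases of elongation factors, Eef1akmt1, Eef1akmt4 and Eef2kmt were lower at log2 ratios of -0.35, -0.28 and -0.16, calls that were lost under cytosolic scaling, and Eef1akmt2 and Eef1akmt3 were not called. Eef1akmt3 stayed under 0.64 CPM in every library and had a standard error of 0.42.

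Poly(A)-binding proteins coat the mRNA tail and contact the cap-binding complex. Pabpc1 (ENSMUSG00000022283), the main cytoplasmic form, had 2170, 2193 and 2164 CPM in ER ribosome-bound RNA and 1771, 1805 and 1797 CPM in cytosol ribosome-bound RNA. This was the largest log2 ratio among the tested members, 0.28 (SE 0.031, adjusted p = 1.1e-09). Pabpc4 (ENSMUSG00000011257), its inducible relative, had 570.2, 563 and 584 CPM in ER ribosome-bound and 473, 497 and 488 CPM in cytosol ribosome-bound RNA, a log2 ratio of 0.24 (SE 0.034, adjusted p = 2.2e-07). Pabpc4 is not in the TOP list and its annotated start, shown here because its ratio was close to that of Pabpc1, carries no pyrimidine run.
Pabpc4: gaaaagaagaggaaaaaaaaaagca
Paip1, a protein that binds poly(A)-binding protein and eIF3, went the other way at -0.26 (SE 0.045, adjusted p = 6.2e-06), and was not called under cytosolic scaling.

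eIF2 carries the initiator tRNA as a complex with GTP, and all 6 genes of this group, which includes the alternative carriers Eif2a and Eif2d, were lower in ER ribosome-bound RNA. Under cytosolic scaling 3 of the 6 were still called lower and 0 were called higher. Eif2s2 (ENSMUSG00000074656), the beta subunit, had 677, 691 and 667 CPM in ER ribosome-bound RNA and 861, 909.5 and 897 CPM in cytosol ribosome-bound RNA. The groups did not overlap and the log2 ratio was -0.39 (SE 0.034, adjusted p = 1.8e-12). Eif2s1 (ENSMUSG00000021116), the alpha subunit whose phosphorylation slows initiation under stress, had 195, 203 and 197 CPM in ER ribosome-bound and 246, 253 and 253 CPM in cytosol ribosome-bound RNA, a log2 ratio of -0.34 (SE 0.036, adjusted p = 2.1e-10). The gamma subunit genes had smaller ratios, -0.19 for Eif2s3x and -0.14 for Eif2s3y, and these became 0.061 and 0.11 without a call under cytosolic scaling. Eif2d was at -0.35 and Eif2a at -0.26.

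eIF2B, the exchange factor that reloads eIF2 with GTP, had 3 of its 5 subunits lower and 0 higher, and 1 lower and 2 higher under cytosolic scaling. The lowest was Eif2b4, the delta subunit, with 43.6, 45.1 and 46.4 CPM in ER ribosome-bound and 57.9, 60.1 and 58.7 CPM in cytosol ribosome-bound RNA and a log2 ratio of -0.39 (SE 0.047, adjusted p = 8.7e-09). Eif2b5, the catalytic epsilon subunit, had 159, 169.7 and 153 CPM in ER ribosome-bound and 168, 170.0 and 168 CPM in cytosol ribosome-bound RNA. The groups overlapped, and the log2 ratio of -0.066 did not pass the test (adjusted p = 0.17). It was called lower in 8 of 12 fits with 1 library left out, at -0.12 to -0.17, namely without ER ribosome-bound replicate 1 or 2, cytosol ribosome-bound replicate 2, ER whole-cell replicate 2 or 3, or any cytosol whole-cell replicate. In those fits the log2 ratios of all genes shifted by a median of -0.061 to -0.065. The direction of Eif2b5 turned to 0.19 under cytosolic scaling.

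eIF3, the scaffold on the small subunit to which most initiation factors dock, was split among its 14 genes, with 4 higher, 7 lower and 3 not called. Of all tested genes 29.1% were higher and 24.6% lower. Under cytosolic scaling 11 eIF3 genes were higher and 2 lower, against 52.5% and 3.08% of all tested genes. Eif3a (ENSMUSG00000024991), the largest core subunit, had 368, 368 and 348 CPM in ER ribosome-bound RNA and 321, 307 and 328 CPM in cytosol ribosome-bound RNA. These did not overlap, and the log2 ratio was 0.18 (SE 0.035, adjusted p = 3.3e-05). Eif3b (ENSMUSG00000056076), which binds Eif3a directly, had 315, 328 and 314 CPM in ER ribosome-bound and 403, 422 and 411 CPM in cytosol ribosome-bound RNA. The log2 ratio of Eif3b was -0.37 (SE 0.033, adjusted p = 4.5e-12). The subunits of the module built on Eif3b did not move together, since Eif3g was at -0.38 (SE 0.036, adjusted p = 2.3e-11) and Eif3i at -0.016 (adjusted p = 0.74). Of the 3 TOP subunits, Eif3f and Eif3h had log2 ratios of 0.10 and 0.090, calls that other scalings lost, and Eif3e was lower at -0.13 (SE 0.039, adjusted p = 0.0063) with a turn to 0.13 under cytosolic scaling. The 2 subunits still called lower under cytosolic scaling were Eif3b and Eif3g.

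Within eIF4F, the complex that binds the cap and unwinds the 5′ end, 8 of 11 tested genes, paralogs included, were lower and 0 higher. Of all tested genes 24.6% were lower and 29.1% higher. Under cytosolic scaling 3 genes of this group were lower and 5 higher, against 3.08% and 52.5% of all tested genes. Eif4a1 (ENSMUSG00000059796), the RNA helicase subunit, had 1256, 1259 and 1213 CPM in ER ribosome-bound RNA and 1597, 1704 and 1641 CPM in cytosol ribosome-bound RNA. The groups were well apart, and the log2 ratio was -0.41 (SE 0.033, adjusted p = 3e-13). Eif4a3, the related helicase of the exon junction complex, was at -0.36 (SE 0.037, adjusted p = 1.4e-10) and Eif4h, a helicase cofactor, at -0.33 (SE 0.033, adjusted p = 7.2e-11). The paralog Eif4a2 had 848, 891 and 845 CPM in ER ribosome-bound and 887, 913 and 937 CPM in cytosol ribosome-bound RNA and did not pass the test, with a log2 ratio of -0.083 (SE 0.039, adjusted p = 0.073), but was called lower in 10 of 12 fits with 1 library left out. Eif4e, the cap-binding protein, had 151, 145 and 136 CPM in ER ribosome-bound and 176, 185 and 177 CPM in cytosol ribosome-bound RNA. The log2 ratio of Eif4e was -0.32 (SE 0.039, adjusted p = 1.1e-08). The scaffold Eif4g1 had 456, 459 and 457 CPM in ER ribosome-bound and 508, 527 and 516 CPM in cytosol ribosome-bound RNA. Its log2 ratio of -0.18 (SE 0.033, adjusted p = 1.8e-05) turned to 0.077 under cytosolic scaling. Its relative Eif4g3 was not called at 0.054, and Eif4b, the TOP member of this group, was at -0.062, a value called lower only in 10 of the 12 fits with 1 library left out. The weakly expressed cap-binding paralog Eif4e3 had 4.24 to 4.57 CPM in ER ribosome-bound RNA and 5.51 to 6.54 CPM in cytosol ribosome-bound RNA. Its log2 ratio of -0.46 (SE 0.12, adjusted p = 0.0014) was lost under cytosolic scaling. Eif4ebp2, which sequesters eIF4E, was at 0.10, a call lost under size factors by relative log expression, and its relative Eif4ebp1 was at -0.15 and turned to a call of 0.11 under cytosolic scaling.

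Start-site selection depends on Eif1, which guards the choice of start codon, on eIF1A and on Eif5, which triggers GTP hydrolysis by eIF2. Eif1 had 602, 611 and 577 CPM in ER ribosome-bound and 557, 519 and 550.2 CPM in cytosol ribosome-bound RNA. Its log2 ratio of 0.14 (SE 0.042, adjusted p = 0.0053) was lost when any of 9 libraries was left out, each of the ER ribosome-bound ones among them, with log2 ratios of 0.043 to 0.10. Eif1ax, the X-linked gene for eIF1A, was lower at -0.30 (SE 0.035, adjusted p = 4.1e-09), and Eif1a, Eif1ad and Eif5 were lower at -0.10, -0.26 and -0.17, while under cytosolic scaling 4 of the 6 genes of this group were higher and 0 lower. The late factors were not called with the settings reported, and other settings called them in either direction. Eif5b, the GTPase that joins the subunits, had 107, 102 and 99.9 CPM in ER ribosome-bound and 106, 109.8 and 104 CPM in cytosol ribosome-bound RNA. The log2 ratio of Eif5b was -0.050 (SE 0.037, adjusted p = 0.28), and Eif6, which keeps free large subunits apart from small ones, was at -0.089 (SE 0.039, adjusted p = 0.051). Eif5b was called lower in 7 of 12 fits with 1 library left out, at -0.11 to -0.14 (without replicate 1 or 2 of the ER ribosome-bound group, replicate 2 or 3 of the ER whole-cell group, or any cytosol whole-cell replicate). Eif6 was called lower in 11 of these 12 fits. Under cytosolic scaling both were called higher, at 0.20 for Eif5b and 0.17 for Eif6.

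Eif5a, the hypusine-bearing factor that relieves stalls during elongation and termination, had 1210.2, 1239.9 and 1282 CPM in ER ribosome-bound and 1324, 1414 and 1392 CPM in cytosol ribosome-bound RNA. Its log2 ratio was -0.15 (SE 0.033, adjusted p = 3e-04) and turned to 0.11 under cytosolic scaling. Both termination factors were lower. Etf1, which reads the stop codon, had 202, 209 and 209.8 CPM in ER ribosome-bound and 250.5, 272 and 261 CPM in cytosol ribosome-bound RNA. For Etf1 the log2 ratio was -0.33 (SE 0.036, adjusted p = 5.2e-10), and Gspt1, its GTPase partner, was at -0.25 (SE 0.036, adjusted p = 2.1e-07). Neither was called under cytosolic scaling, where Etf1 was at -0.080.

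**Figure D2:**
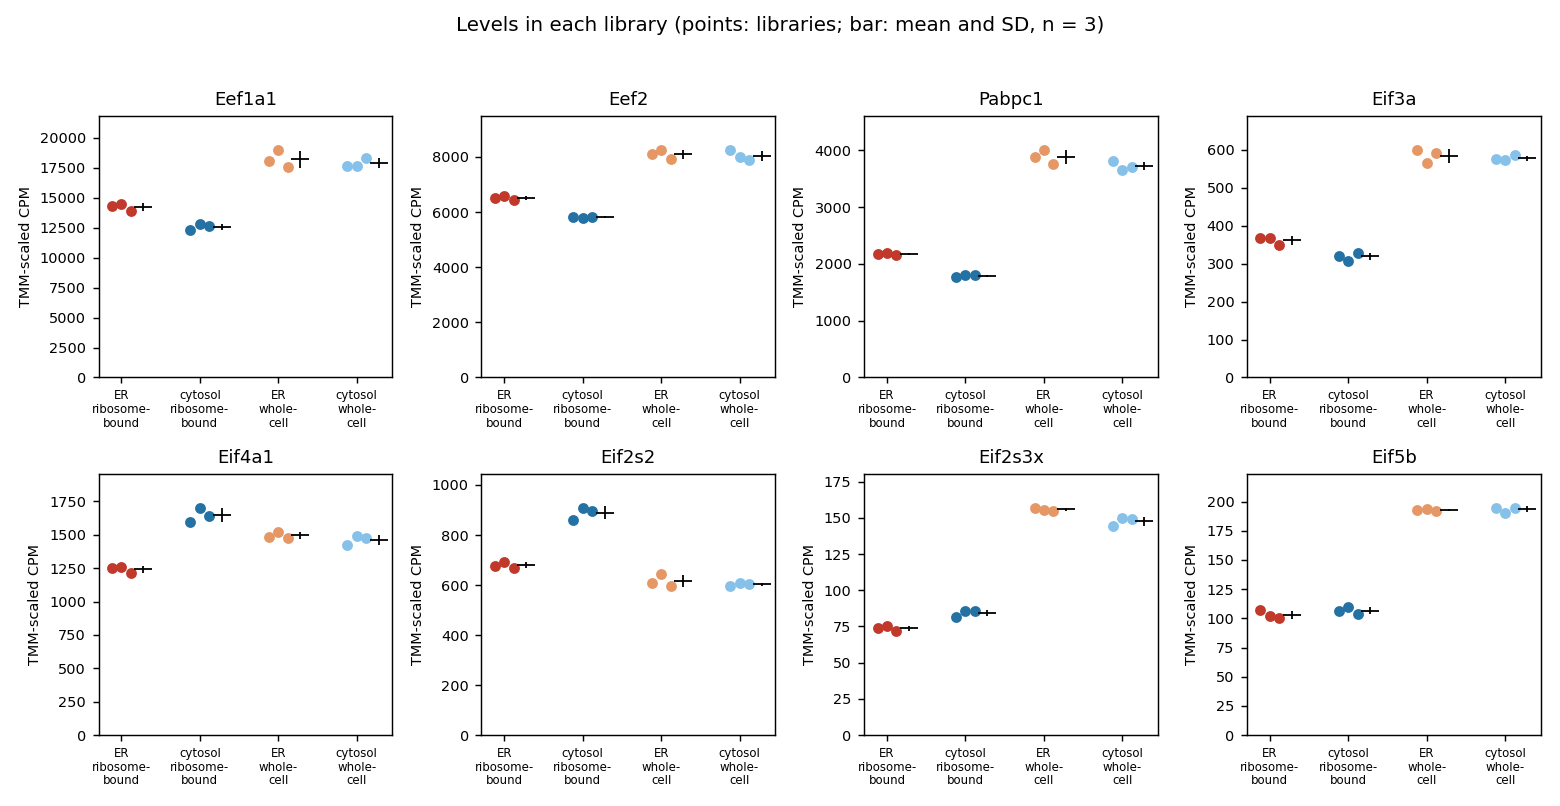
TMM-scaled CPM of 8 translation factor mRNAs in each of the 12 libraries, with the mean and SD of 3 libraries per group beside the points and axes starting at 0. Eef1a1, Eef2, Pabpc1 and Eif3a lie higher in ER ribosome-bound than in cytosol ribosome-bound libraries, Eif4a1 and Eif2s2 lie lower, and Eif2s3x and Eif5b lie far below whole-cell RNA in both labelled pools.

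Ratios of 2 factors counted in the same library do not depend on the scaling. Pabpc1 over Eif4a1 was 1.728, 1.742 and 1.784 in the ER ribosome-bound libraries and 1.109, 1.059 and 1.095 in the cytosol ribosome-bound libraries. In whole-cell RNA it was 2.59 ± 0.05 with ER targeting and 2.55 ± 0.12 with cytosol targeting (SD, n = 3 each). The whole-cell groups overlapped, while each labelled pool stood apart from the other and from whole-cell RNA. Within eIF3, Eif3a over Eif3b was 1.171, 1.123 and 1.107 in ER ribosome-bound and 0.7963, 0.7283 and 0.7965 in cytosol ribosome-bound libraries, against 1.43 ± 0.035 in ER whole-cell and 1.44 ± 0.03 in cytosol whole-cell RNA. The helicase paralogs Eif4a1 over Eif4a2 were at 1.481, 1.413 and 1.435 in ER ribosome-bound libraries and 1.8, 1.866 and 1.75 in cytosol ribosome-bound libraries. The ER pool lay near whole-cell RNA in this ratio, which was 1.46 ± 0.02 with ER targeting and 1.48 ± 0.091 with cytosol targeting. Within eIF2, Eif2s3x over Eif2s2 was 0.109 ± 0.00077 in ER ribosome-bound and 0.0948 ± 0.0006 in cytosol ribosome-bound RNA, against 0.254 ± 0.0099 in ER whole-cell and 0.245 ± 0.0027 in cytosol whole-cell RNA (SD, n = 3 each). The counts of the 10 TOP members over those of the other 59 were 2.151, 2.146 and 2.119 in ER ribosome-bound and 1.702, 1.695 and 1.701 in cytosol ribosome-bound libraries. That ratio was 2.45 ± 0.043 in ER whole-cell and 2.45 ± 0.018 in cytosol whole-cell RNA. Eef1a1 and Eef2 weigh most in it, with means of 14254 and 6506 CPM in ER ribosome-bound RNA. Eif3e, Eif4b and Eef1d, at 193, 983 and 403 CPM there, weigh little. With 3 libraries against 3, an exact 2-sided permutation test cannot go below 0.10, so no test is given for these ratios.

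**Figure D3:**
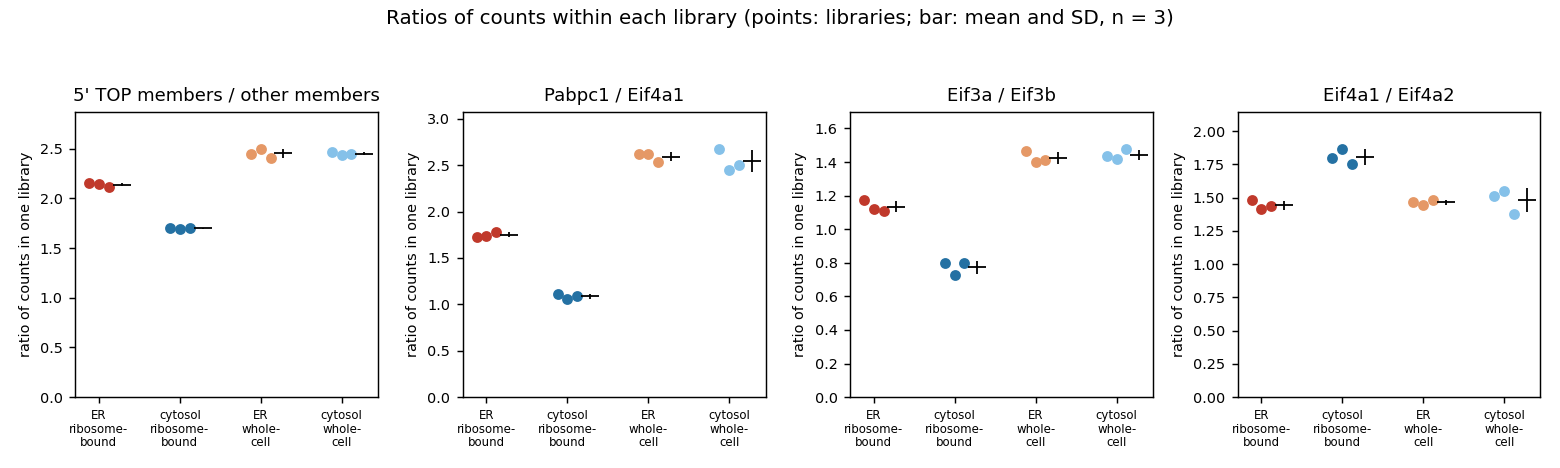
Ratios of read counts within each of the 12 libraries, with the mean and SD of 3 libraries per group and axes starting at 0. The ratio of TOP members to other members and the ratios Pabpc1 to Eif4a1 and Eif3a to Eif3b lie higher in ER ribosome-bound than in cytosol ribosome-bound libraries and highest in whole-cell RNA, while Eif4a1 to Eif4a2 is highest in the cytosol ribosome-bound libraries. Counts of Eef1a1 and Eef2 weigh most in the ratio of TOP members.

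The comparisons of ribosome-bound with whole-cell RNA set the relative level of each factor mRNA on labelled ribosomes against that in the lysate. The fraction of an mRNA that was bound to ribosomes was not measured. In both pools the mRNAs of the poly(A)-binding proteins, of Eif3a, Eif5b and Eif2s3x, the gamma subunit of eIF2, were at 0.47 to 0.63 of their whole-cell CPM. On ER-labelled ribosomes 6 of the 67 members were higher, against 32.5% of all tested genes, and 42 were lower, against 30.6%. On cytosol-labelled ribosomes 20 members were higher, against 20.8% of all tested genes, and 27 were lower, against 33%. The median log2 ratio of the members was -0.22 in the ER pool and 0.017 in the cytosol pool, against 0.014 and -0.054 over all tested genes. Cytosolic scaling raised the median of all genes by 0.22 in the ER comparison and gave 25 members higher, against 48.7% of all tested genes, and 22 lower, against 15.5%. It shifted the cytosol comparison by -0.054 and gave 15 higher, against 16% of all tested genes, and 30 lower, against 37.3%. These 2 comparisons share no library, and the members' log2 ratios in them correlated at Pearson's r = 0.81 and Spearman's rho = 0.81 across 67 genes, and at r = 0.43 and rho = 0.30 across all 16221 tested genes. Genes share libraries and scaling factors and are not independent replicates.

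Eif2s3x (ENSMUSG00000035150) had 74.0, 75.2 and 72.0 CPM in ER ribosome-bound and 157, 156 and 155 CPM in ER whole-cell RNA, a log2 ratio of -1.08 (SE 0.038, adjusted p = 5.6e-24). In the cytosol pool it had 81.5, 85.7 and 85.6 CPM in ribosome-bound and 144, 149.6 and 149 CPM in whole-cell RNA, a log2 ratio of -0.81 (SE 0.037, adjusted p = 6.5e-20). Its Y-linked copy Eif2s3y was at -0.74 in the ER pool and -0.55 in the cytosol pool. The beta subunit of the same complex did the reverse: Eif2s2 had 677, 691 and 667 CPM in ER ribosome-bound and 608, 642 and 595 CPM in ER whole-cell RNA, a log2 ratio of 0.14 (SE 0.034, adjusted p = 0.00046). With cytosol targeting Eif2s2 had 861, 909.5 and 897 CPM in ribosome-bound and 597, 607 and 604 CPM in whole-cell RNA. Its log2 ratio was 0.56 (SE 0.034, adjusted p = 2e-16), the highest of the called members there. The alpha subunit Eif2s1 was lower in the ER pool at -0.34 (SE 0.036, adjusted p = 1.7e-10) and not called in the cytosol pool at 0.032 (SE 0.035, adjusted p = 0.46), where 5 of 12 fits with 1 library left out called it higher at 0.083 to 0.11 (without replicate 2 or 3 of either ER group or cytosol whole-cell replicate 3).

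Eif5b (ENSMUSG00000026083) had 107, 102 and 99.9 CPM in ER ribosome-bound and 193, 194 and 192 CPM in ER whole-cell RNA, a log2 ratio of -0.90 (SE 0.036, adjusted p = 4.5e-22). In the cytosol pool Eif5b had 106, 109.8 and 104 CPM in ribosome-bound and 195, 190.3 and 195 CPM in whole-cell RNA, a log2 ratio of -0.86 (SE 0.036, adjusted p = 6e-21). The ribosome-bound CPM was thus 0.53 of the whole-cell CPM in the ER pool and 0.55 of it in the cytosol pool. Eif6 was higher in both pools, at 0.15 in the ER pool and 0.25 in the cytosol pool. Pabpc1 had 2170, 2193 and 2164 CPM in ER ribosome-bound and 3878, 4004 and 3754 CPM in ER whole-cell RNA, a log2 ratio of -0.83 (SE 0.032, adjusted p = 6.4e-23). In the cytosol pool Pabpc1 had 1771, 1805 and 1797 CPM in ribosome-bound and 3803, 3653 and 3711 CPM in whole-cell RNA. There the log2 ratio of Pabpc1 was -1.06 (SE 0.032, adjusted p = 4.3e-25), and Pabpc4 followed at -0.68 in the ER pool and -0.89 in the cytosol pool. Eif3a was at -0.69 (SE 0.035, adjusted p = 3.8e-19) in the ER pool and -0.86 (SE 0.035, adjusted p = 3.1e-21) in the cytosol pool. Of the 14 eIF3 genes 12 were lower in the ER pool, against 30.6% of all tested genes. Under cytosolic scaling 7 were lower there, against 15.5%, and 2 higher, against 48.7%. In the cytosol pool 9 were lower, against 33% (10 under cytosolic scaling, against 37.3%).

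Relative to whole-cell RNA, all 10 TOP members were lower in the ER pool, against 30.6% of all tested genes. In the cytosol pool 9 were lower, against 33%, with Eef1d the exception there (log2 ratio -0.062, adjusted p = 0.11). Eef1a1 was at -0.35 (SE 0.032, adjusted p = 3.8e-12) in the ER pool and -0.51 (SE 0.032, adjusted p = 5.5e-16) in the cytosol pool, from 18041, 18998 and 17593 CPM in ER whole-cell and 17671, 17664 and 18371 CPM in cytosol whole-cell RNA. Eef2 was at -0.31 (SE 0.030, adjusted p = 1.7e-11) in the ER pool and -0.47 (SE 0.030, adjusted p = 9.6e-16) in the cytosol pool, and Eef1b2 at -0.46 in the ER pool and -0.70 in the cytosol pool. Under cytosolic scaling 9 of the 10 were called lower in the ER pool, against 15.5% of all tested genes, and Eef1d was called higher, at 0.10. Among the few members higher on ER-labelled ribosomes, Eif4g3 was at 0.23 (SE 0.042, adjusted p = 1.7e-05), Eif1 at 0.17 (SE 0.042, adjusted p = 0.00083) and Eif4g1 at 0.085 (SE 0.033, adjusted p = 0.025), and the last of these calls was lost without ER ribosome-bound replicate 1 or 2 or replicate 2 of the ER whole-cell group. The rare Eef1a2, at 5.29 to 8.05 CPM in ER ribosome-bound and 4.41 to 5.82 CPM in ER whole-cell RNA with overlapping groups, was called at 0.44 (SE 0.15, adjusted p = 0.012), a call that was lost without replicate 1 of the ER ribosome-bound or replicate 3 of the ER whole-cell group. The cytosol pool had more such members, among them Eif2b4 at 0.40 (SE 0.047, adjusted p = 5.3e-09), Eif4a3 at 0.31 (SE 0.036, adjusted p = 5.5e-09), Eif2d at 0.28 (SE 0.037, adjusted p = 4.5e-08) and Eif4g1 at 0.28 (SE 0.033, adjusted p = 3.1e-09). Eif4e and Etf1 were called lower in the cytosol pool at -0.095 and -0.090 (adjusted p = 0.036 and 0.033), calls that were each lost when any of 11 libraries was left out, all but ER whole-cell replicate 1.

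**Figure D4:**
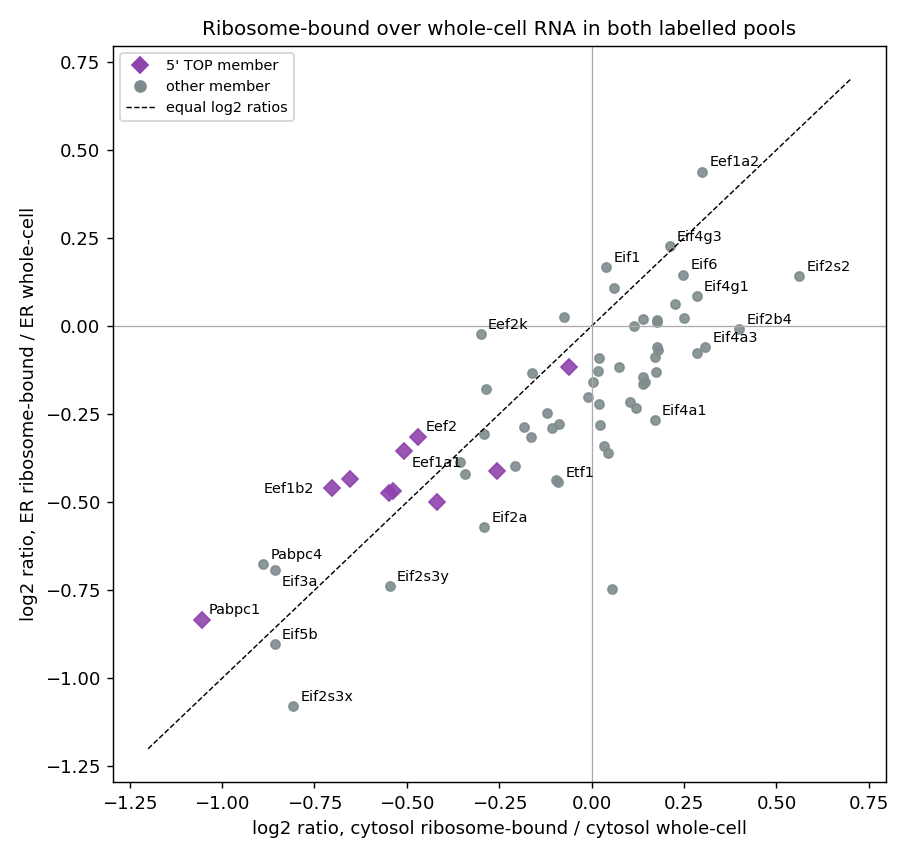
Log2 ratio of ribosome-bound to whole-cell RNA for the 67 tested members, with the cytosol pool on the horizontal and the ER pool on the vertical axis, TOP members as diamonds and equal ratios on the dashed line. Pabpc1, Pabpc4 and Eif3a lie at the lower left above the line, Eif2s3x and Eif5b lie there below it, and Eif2s2, Eif2b4 and Eif4a1 lie to the right below it.

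The difference between these enrichments was tested as an interaction, which subtracts any difference already present in whole-cell RNA. A positive value means a higher ratio of ribosome-bound to whole-cell CPM in the ER pool than in the cytosol pool. The difference was positive for 8 of the 67 members, against 24.8% of all tested genes, and negative for 32, against 18.6%. The positive members were Eef2k at 0.28 (SE 0.077, adjusted p = 0.0034), Eef1b2 at 0.24 (SE 0.050, adjusted p = 0.00012), Pabpc1 at 0.22 (SE 0.044, adjusted p = 7.7e-05), Eef1g at 0.22 (SE 0.045, adjusted p = 9.2e-05), Pabpc4 at 0.21, Eif3a at 0.16, Eef2 at 0.15 and Eef1a1 at 0.15. The most negative were Eif4a1 at -0.44 (SE 0.047, adjusted p = 4.4e-10), Eif2s2 at -0.42 (SE 0.048, adjusted p = 2.4e-09), Eif2b4 at -0.41 (SE 0.068, adjusted p = 4.8e-06) and Eif3b at -0.40 (SE 0.047, adjusted p = 3.2e-09). Under cytosolic scaling, which raised the median of all genes by 0.27 here, 28 members were called positive, against 43% of all tested genes, and 3, Eif4a1, Eif2s2 and Eif3b, were called negative, against 1.51%. Called in the same direction under every scaling tried were those 3 and 6 positive members, Eef2k, Eef1b2, Pabpc1, Eef1g, Pabpc4 and Eef2. How many of all tested genes kept their call in this way was not counted. The 8 positive calls became 5 without ER ribosome-bound replicate 1 or 2, cytosol ribosome-bound replicate 2, ER whole-cell replicate 3 or cytosol whole-cell replicate 1, and the calls of Eef1a1, Eef2 and Eif3a were among those lost.

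Whole-cell RNA of the ER-targeted and cytosol-targeted cells did not differ detectably. With edgeR 0 of the 67 members were higher and 0 were lower, as were 0 genes of all tested in each direction, a background of 0% higher and 0% lower. At an unadjusted p under 0.05 edgeR counted 634 genes, 3.91% of those tested, and 1 member, Eif2s3x. DESeq2 counted 0 genes after adjustment. Without it DESeq2 counted 320 genes, 1.09% of 29452, and the members Eif2s3x and Pabpc1. Both shares lie below what a threshold of 0.05 gives where no gene differs. The members' log2 ratios ranged from -0.19 to 0.20, with a median of 0.018.

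The TOP members were set beside the other members and beside 83 ribosomal protein genes, which are TOP mRNAs as well. Between the labelled pools 7 of 10 TOP members were higher and 1 lower, with a median log2 ratio of 0.13. Of 57 other members 6 were higher and 37 lower, with a median of -0.17. Of all tested genes 29.1% were higher and 24.6% lower. Under cytosolic scaling 10 TOP members were higher and 0 lower, with a median of 0.39. Other members were then 27 higher and 9 lower, with a median of 0.089, against 52.5% and 3.08% of all tested genes. With the settings reported, 71 of the ribosomal protein genes were higher and 1 lower, with a median of 0.16. Relative to whole-cell RNA the TOP members had medians of -0.45 in the ER pool and -0.52 in the cytosol pool, the other members -0.16 and 0.040, and the ribosomal protein genes -0.22 and -0.38. The TOP median exceeded that of the other members by 0.30 between the pools, and lay 0.29 under it in the ER pool and 0.56 under it in the cytosol pool relative to whole-cell RNA. A change of scaling moves all genes of a comparison nearly alike, so these distances cannot test the scaling. They were 0.30, 0.29 and 0.56 under cytosolic scaling. The median of the ribosomal protein genes between the pools stayed positive under each scaling, from 0.11 to 0.42, and in the ER pool against whole-cell RNA it was -0.0064 under cytosolic scaling. With the settings reported, Eif3e, Eif4b and Eef1d had log2 ratios between the pools of -0.13, -0.062 and -0.064, of which only Eif3e was called. Under cytosolic scaling these 3 were called higher with the other TOP members, so their direction depended on the scaling.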

How the data were processed

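Poly(A) RNA was measured by directional RNA-seq in 12 libraries, 4 groups of 3, of mouse embryonic stem cells. The authors deposited 1 table of read counts per gene for each library. STAR 2.7.9a and HTSeq 0.11.2 on the GRCm39 build are named in the submitters' processing notes, and DESeq2 without a version. The annotation release, the strand setting and the handling of reads with several alignments were not given in the sources used here. The 5 class totals at the end of each table (reads without a gene, ambiguous, low quality, not aligned or aligned more than once) entered neither library sizes nor tests.

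The counts were tested as deposited with edgeR 4.0.16 (quasi-likelihood, TMM scaling, genes kept by filterByExpr on the groups) in R 4.3.3, with all 12 libraries in 1 model, 5 two-sided comparisons and Benjamini-Hochberg adjustment at 0.05 over 16221 genes. The biological coefficient of variation was 3.61%. Genes were named from GENCODE M21 (GRCm38), which matched 52135 of 55416 identifiers, so no coordinates are given. CPM are computed from the counts with TMM scaling. Replicates differed by more than counting noise (chi-square per gene 2.11 to 9.12), so none were merged. The highest values, 9.12 and 7.4, were those of cytosol whole-cell replicate 2 against replicates 1 and 3 of its group. Those replicates were at 2.59 against each other.

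The members and lists were chosen with earlier results of these data known, and the list of TOP mRNAs is from general knowledge of the class. Members printed with full values were 1 defining gene or more of each complex and the 4 highest and 4 lowest called members of each comparison; others were chosen after their values were seen. Alternatives were size factors by relative log expression, scaling to 96 mRNAs of cytosolic proteins, leaving out mitochondrially encoded genes, no filter, DESeq2 1.42.0, only the groups compared, the replicate number as a block, and leaving out each library. The test script was checked on simulated data.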

Additional observations from a re-analysis of the deposited data

Results flagged for a closer look

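For 5 members the ratio of ribosome-bound to whole-cell RNA was called in opposite directions, lower on ER-labelled and higher on cytosol-labelled ribosomes. A called interaction between the enrichments was part of the rule that picked them. It was tested with the quasi-likelihood test of edgeR (p-values adjusted by Benjamini-Hochberg). How many of all tested genes meet this rule was not counted. The RNA helicase mRNA Eif4a1 was at a log2 ratio of -0.27 in the ER pool and 0.17 in the cytosol pool, a difference of -0.438 (SE 0.0465, adjusted p = 4.4e-10). Eif3g, an RNA-binding subunit of eIF3, was at -0.23 in the ER pool and 0.12 in the cytosol pool, a difference of -0.352 (SE 0.0512, adjusted p = 3.9e-07). Eif4h, a cofactor of the eIF4A helicase, was at -0.22 in the ER pool and 0.10 in the cytosol pool, a difference of -0.319 (SE 0.0464, adjusted p = 3.8e-07). Eif1ax, the X-linked gene for eIF1A, was at -0.16 in the ER pool and 0.14 in the cytosol pool, a difference of -0.305 (SE 0.0499, adjusted p = 3.3e-06). Paip1, a partner of poly(A)-binding protein, was at -0.17 in the ER pool and 0.14 in the cytosol pool, a difference of -0.303 (SE 0.0639, adjusted p = 0.00015). Under cytosolic scaling none of the 5 was called in the ER pool, where Eif4a1 was at -0.052, Eif3g at -0.017, Eif4h at 0.00056, Paip1 at 0.049 and Eif1ax at 0.056, and Eif4a1 and Eif1ax were still called higher in the cytosol pool. Among these, Eif4a1 was the only member whose difference was still called negative under cytosolic scaling. Single libraries that stand apart within a group were not tested for, since the groups hold 3 libraries. Over all genes cytosol whole-cell replicate 2 lay farthest from its group, with a chi-square per gene of 9.12 and 7.4.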

How the results depend on the processing

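The counts of called members depended most on scaling. Between the labelled pools 13 members were higher with the settings reported, 37 under cytosolic scaling and 8 under size factors by relative log expression, without mitochondrially encoded genes, without the filter and with DESeq2, while 38 were lower with the settings reported and 9 under cytosolic scaling. Of 16221 tested genes 4715 were higher and 3983 lower with the settings reported, and 8520 and 500 under cytosolic scaling. Under size factors by relative log expression 4387 were higher and 4743 lower. Cytosolic scaling also gave 25 higher and 22 lower members (6 and 42 reported) for ER ribosome-bound against ER whole-cell RNA, and 28 positive and 3 negative members (8 and 32 reported) for the difference of enrichments. Among the members chosen by rule it reversed Eif2b5 (0.187), Eif4g1 (0.0772), Eif5b (0.204) and Eif5a (0.108) between the pools, Eif2b5 (0.123) in the ER pool against whole-cell RNA, and Eif2b5 (0.158), Eif4g1 (0.0705), Eif5b (0.224) and Eif5a (0.109) in the difference. Over all 67 members, 11 turned from called lower to called higher between the pools (Eif1a, Eif3c, Eif3d, Eif3e, Eif3m, Eif4e2, Eif4ebp1, Eif4enif1, Eif4g2, Eif5 and Eif5a), 4 in the ER pool and 2 in the difference. The cause of these changes was not tested. Of 1669 recomputed values for named members, 1520 kept their direction and call, 89 lost a call, 51 gained one and 9 reversed. Leaving out each library in turn gave 7 to 11 higher and 37 to 47 lower members between the pools, 4 to 6 and 40 to 43 in the ER pool, 20 to 27 and 23 to 27 in the cytosol pool, 0 to 0 in both directions between whole-cell groups, and 5 to 9 positive and 29 to 40 negative differences. Of 16483 to 16532 tested genes, these fits called 4100 to 4718 higher and 3681 to 5137 lower between the pools. Between the pools most of these fits shifted the log2 ratios of all genes by a median of -0.058 to -0.065. The part of this in the calls was not tested.

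Same-numbered ribosome-bound and whole-cell libraries had deviations from their group means that correlated at 0.0865, 0.0856 and 0.0437 with cytosol targeting. With ER targeting these were -0.000948, 0.227 and 0.238, against -0.228 and -0.236 when numbers 2 and 3 were swapped. These values do not settle whether the numbers pair the libraries. The model reported used no pairing, and blocks are given as alternatives. With the replicate number as a block, 11 members were higher and 38 lower between the pools, 6 and 42 in the ER pool, 20 and 27 in the cytosol pool, 0 and 0 between whole-cell groups and 8 and 32 in the difference. In that model 4692 of 16221 tested genes were higher and 3945 lower between the pools. With a block for each lysate the counts were 6 and 45, 23 and 28, and 10 and 36 for the ER pool, the cytosol pool and the difference. Of 16221 tested genes 5362 were then higher and 5086 lower in the ER pool, and 3542 and 5502 in the cytosol pool. For the difference these counts were 4112 and 3257. The rarest tested member, Eef1akmt3, had at most 0.639 CPM and wide standard errors (0.42 between the pools).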

Other observations

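Translation-linked genes outside the naming rule, a list of 31 genes for eIF2 kinases and phosphatases, mTOR pathway components, ribosome recycling and related helicases, had 8 members higher and 13 lower between the labelled pools by edgeR's quasi-likelihood test, with a median log2 ratio of -0.11, against 29.1% of all tested genes higher and 24.6% lower. Under cytosolic scaling 17 were higher and 2 lower with a median of 0.14, against 52.5% and 3.08% of all tested genes. Eif2ak3, the eIF2 kinase that spans the ER membrane, had a log2 ratio of 1.85 (SE 0.078, adjusted p = 1.3e-21). The cytosolic eIF2 kinase Eif2ak1 was at 0.64, and the regulatory subunits of the eIF2 phosphatase were at 0.84 for Ppp1r15b and 0.31 for Ppp1r15a. The RNA helicase Ddx3x was at -0.44 and Abcf1, an initiation-linked ATPase, at -0.46. Relative to whole-cell RNA, Mtor, the kinase that controls TOP mRNAs, was at -0.97 on ER-labelled and -1.05 on cytosol-labelled ribosomes, and Abce1, the ribosome recycling ATPase, was at -0.72 on ER-labelled ribosomes. These genes were chosen after their values were seen.

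Across the 67 tested members, the log2 ratio between the labelled pools correlated with the whole-cell level per kilobase at Pearson's r = 0.46 and Spearman's rho = 0.35, and with coding length at r = 0.17 and rho = 0.20. Over 16188 tested genes with a length the first of these was -0.12 and -0.18. These are correlations across genes that share libraries, and genes are not independent replicates.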
